A study of Homo sapiens with 12 samples.

Results

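The 10 genes described here are 6 pregnancy-specific glycoprotein genes (PSG1, PSG3, PSG4, PSG5, PSG8 and PSG9) and 4 carcinoembryonic antigen-related cell adhesion molecule genes (CEACAM1, CEACAM5, CEACAM6 and CEACAM7), out of 26485 genes in the expression table. They were picked by name, with their levels across the 4 groups of this table already known, so their values are given as a description and carry no test. All 10 lie on chromosome 19, between 41673303 and 43269530 of GRCh38.p14 (RefSeq annotation), a span of 1.6 Mb in which the CEACAM genes come first, CEACAM7, CEACAM5, CEACAM6 and then CEACAM1, followed by the PSG genes.

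The cells were BT474, an established HER2-positive breast cancer line labelled wild type, profiled by RNA-sequencing while tolerance to lapatinib, a small molecule that blocks the kinase activity of HER2 and EGFR, developed. There were 4 groups of 3 libraries each. Control cells were taken at day 0, drug-tolerant persister (DTP) cells at day 9, drug-tolerant expanded persister (DTEP) cells at month 6 and long-term resistant (LR) cells at month 9. All 12 libraries, the Control libraries included, carry the treatment label lapatinib at 1 uM, while the titles of the Control libraries place them at day 0, which is how they are used here. The 3 libraries of a group came from parallel plates of one line and the study calls them technical replicates, so every SD and p-value below measures the spread between such plates only. In these bulk libraries fewer cells expressing a gene and less RNA per cell cannot be told apart.

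The PSG proteins are secreted, heavily glycosylated members of the immunoglobulin superfamily that the syncytiotrophoblast of the placenta releases into the maternal circulation, where some of them bind cell-surface proteoglycans and activate latent TGF-beta. The CEACAM proteins belong to the same family but stay on the cell surface as adhesion molecules. CEACAM1 spans the membrane and can signal through an inhibitory cytoplasmic tail, whereas CEACAM5 (the carcinoembryonic antigen used as a tumour marker), CEACAM6 and CEACAM7 are held by glycosylphosphatidylinositol (GPI) anchors and are made mainly by epithelia of the gut, lung and other mucosal surfaces.

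The 250 bases before the start of 4 tested members are printed here. These had the largest changes between DTP and Control on the log2(value + 1) scale, which is not the order by fold. They are shown because they are related in sequence and belong to members whose levels differed in opposite directions. They come from RefSeq (GRCh38.p14), read 5′ to 3′ on the strand of the gene, and capitals mark the motifs that were searched.
PSG4, chr19:43205639-43205888, minus strand: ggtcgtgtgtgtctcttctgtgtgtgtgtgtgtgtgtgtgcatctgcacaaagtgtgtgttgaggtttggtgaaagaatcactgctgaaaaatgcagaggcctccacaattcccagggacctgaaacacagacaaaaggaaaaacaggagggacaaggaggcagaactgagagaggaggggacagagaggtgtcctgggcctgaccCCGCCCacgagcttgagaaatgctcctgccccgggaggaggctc
CEACAM6, chr19:41755280-41755529, plus strand: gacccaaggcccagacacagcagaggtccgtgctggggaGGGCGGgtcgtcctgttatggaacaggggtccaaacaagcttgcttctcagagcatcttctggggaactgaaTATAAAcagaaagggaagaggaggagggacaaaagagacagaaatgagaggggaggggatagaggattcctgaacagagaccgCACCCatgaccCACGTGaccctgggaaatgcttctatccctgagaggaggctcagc
CEACAM7, chr19:41688271-41688520, minus strand: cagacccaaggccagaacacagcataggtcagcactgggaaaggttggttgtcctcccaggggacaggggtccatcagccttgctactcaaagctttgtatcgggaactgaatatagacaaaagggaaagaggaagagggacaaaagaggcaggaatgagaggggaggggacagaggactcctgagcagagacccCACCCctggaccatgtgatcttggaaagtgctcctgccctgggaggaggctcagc
CEACAM1, chr19:42528482-42528731, minus strand: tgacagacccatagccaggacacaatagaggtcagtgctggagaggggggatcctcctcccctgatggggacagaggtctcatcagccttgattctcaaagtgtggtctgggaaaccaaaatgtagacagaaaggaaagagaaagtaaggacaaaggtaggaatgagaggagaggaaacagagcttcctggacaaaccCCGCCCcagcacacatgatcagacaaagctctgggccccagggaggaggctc

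Of the 10 members, 7 had an entry in the RefSeq upstream table; PSG1, PSG8 and PSG9 did not. Identity was taken over aligned bases only, with gap positions left out. In their aligned bases the PSG sequences were nearly the same, at 95% identity between PSG4 and PSG5 (219 aligned bases, 62 gap positions) and 95.1% between PSG4 and PSG3 (245 and 10). Among the CEACAM sequences identity was 84.4% between CEACAM7 and CEACAM5 and 80.2% between CEACAM7 and CEACAM6, and CEACAM1 shared 75.8% with CEACAM7, 74.4% with CEACAM6 and 72% with CEACAM5. Across the families, identity ranged from 67.4% (PSG4 and CEACAM6) to 74.4% (PSG5 and CEACAM7), a range that overlapped the values of CEACAM1. These values rest on unlike alignments, with 102 gap positions between PSG5 and CEACAM7 but 20 between CEACAM1 and CEACAM7.

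The 5 motifs searched on both strands were the TATA box TATAAA, the box bound by SP factors, GGGCGG, the core bound by several Krüppel-like factors, CACCC, the E-box bound by USF factors, CACGTG, and the core bound by the aryl hydrocarbon receptor, GCGTG. No match overlapped another. PSG4 held 1 match, GGGCGG on the opposite strand, beginning 44 bases before the start, and CEACAM1 held the same motif on the opposite strand at 52 bases. CEACAM7 held CACCC at 55 bases. CEACAM6 held 4 motifs, namely TATAAA at 139 bases, GGGCGG at 211, CACCC at 56 and CACGTG at 45. Of 35116 promoters in the table, 42.6% held GGGCGG, 54.7% held CACCC, 10.7% held TATAAA and 6.34% held CACGTG in a window of this length. GCGTG, held by 32.2% of promoters, was in none of the 7 members. A match describes these letters only.

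Levels are normalised read counts, in which 1 read is worth between 0.0412 and 0.0576 depending on the library. Between 16383363 and 25030482 reads per library were assigned to genes, and 3 reads, the limit that a count of 0 allows, correspond to 0.124 to 0.173. The 7 breast epithelial markers were present in every group. Their sum, led in Control by ERBB2 (6356 to 6833), which encodes HER2, was 10520 to 11263 in Control, higher in DTP (12878 to 15300) and lower in LR (3991 to 5450), while single markers went either way: CDH1, the epithelial cadherin, was 1094 to 1146 in Control and 60.6 to 91.1 in LR, and GATA3, a luminal transcription factor, 183 to 198 and 910 to 1572. Of 5 trophoblast markers, CGB5, ERVFRD-1 and CSH1 had no read in any library and the sum of all 5 was at most 0.288. Of 5 myeloid markers, ELANE and FCGR3B had no read, while the sum, nearly all of it lysozyme (LYZ), was highest in the DTP libraries (3.22 to 4.84), against 0.838 to 1.79 in Control, 0.337 to 1.48 in DTEP and at most 0.388 in LR. Of 3 fibroblast and 2 endothelial markers, DCN, COL3A1 and PECAM1 were at most 0.217 everywhere. COL1A1 was 50.9 to 61.7 in Control and 98.4 to 130 in LR, and VWF, which encodes von Willebrand factor, was 7.77 to 8.57 in Control, 1.67 to 2.35 by day 9 and at most 0.383 afterwards, lower at each of these times as the CEACAM members were. The part of other cells in the results below was not tested.

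Summed over each family, the PSG members were low in Control, high in DTP, and low again in DTEP and LR, while the CEACAM members were highest in Control and lower at each later time. The 6 PSG genes together stood at 1.06 ± 0.495 (SD, n = 3 here and below) before treatment. At day 9 their sum was 63.4 ± 3.35, at month 6 it was 6.73 ± 6.36 and at month 9 it was 0.0464 ± 0.0486. The 4 CEACAM genes together stood at 241 ± 10.3, 27.7 ± 2.95, 0.818 ± 0.666 and 0.0994 ± 0.0525 at the same times. In pooled reads the PSG sum was 58.2-fold higher in DTP than in Control (95% exact counting interval 45.7 to 75.3), whereas the CEACAM sum was 8.7-fold lower (8.26 to 9.17). Such intervals cover counting error only. By DTEP the CEACAM sum was 280-fold below Control. The PSG sum was 6.47-fold above Control in pooled DTEP reads, but the DTEP libraries, at 13.1, 6.67 and 0.393, overlapped Control, at 1.01, 0.598 and 1.58, and the ratio of means was 9.29 when DTEP replicate 3 was left out but 3.32 when replicate 1 was. In LR both had all but disappeared, with 3 PSG reads and 6 CEACAM reads in 3 libraries.

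**Figure D1:**
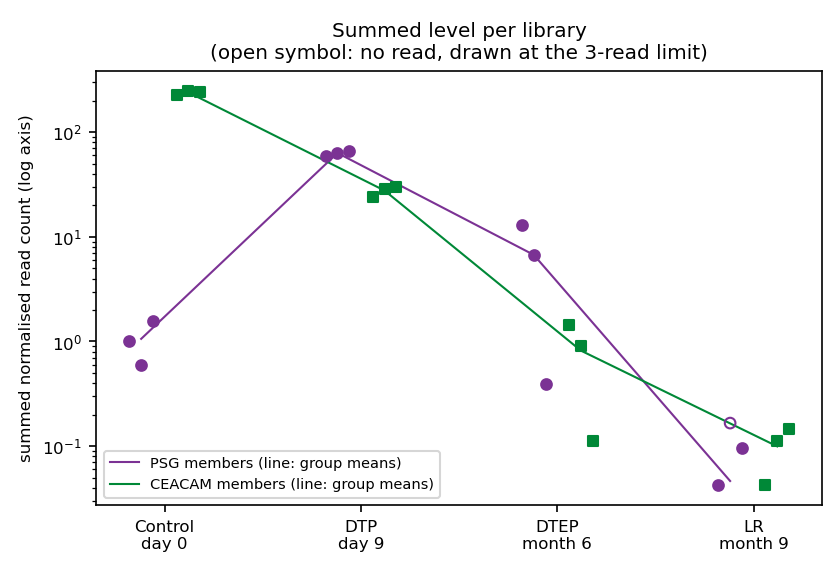
Summed normalised read count (log axis) of the 6 PSG members (purple circles) and the 4 CEACAM members (green squares) in each library, by group on the horizontal axis; lines join the group means and the open circle is a library without a PSG read, drawn at its 3-read limit. The PSG sum went from 1.06 in Control to 63.4 in DTP while the CEACAM sum went from 241 to 27.7, and the 3 DTEP libraries spread from 13.1 to 0.393 for the PSG sum.

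One gene carried each sum. PSG4 took 96% of the PSG reads in DTP (exact 95% interval 95.3 to 96.6), 92.5% in Control (83.4 to 97.5) and 94.1% in DTEP (91.5 to 96.1). CEACAM6 took 87.5% of the CEACAM reads in Control (86.9 to 88), 93.9% in DTP (92.6 to 95.1) and 75.9% of the 54 reads left in DTEP (62.4 to 86.5). Levels were also divided by the kilobases of exon of each gene, for a rough comparison between genes. The length was that of all GENCODE exons of a gene merged, whereas reads were counted over RefSeq models. On this scale CEACAM6 led in Control with a level of 71.3, ahead of CEACAM7 at 5.37, CEACAM1 at 1.72 and CEACAM5 at 1.6, with PSG4 at 0.156. In DTP PSG4 was at 9.7 and CEACAM6 at 8.79, both below CEACAM19, a family gene that is no member, at 15.1 (3.04 in Control). The order of these 3 depends on the lengths used, 6274 bases for PSG4, 2956 for CEACAM6 and 5173 for CEACAM19.

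Whether a member was called was read from a limma fit of all genes on log2(value + 1), in which a gene was called when its Benjamini-Hochberg adjusted p was under 0.05 and its absolute log2 change above 2. Such log2 changes understate the change of low genes. Of the 10 members, 6 passed the filter on low values and 4 (PSG1, PSG3, PSG5 and PSG9) did not. PSG8 passed it through the DTP libraries alone, and CEACAM1, CEACAM5 and CEACAM7 through the Control libraries alone, in each case the group where they were highest. A call between that group and another is for these members a description only. Between DTP and Control, 1 member was called higher and 4 lower; among all 13794 tested genes 1.01% were called higher and 3.90% lower. Between DTEP and DTP, 2 members were called lower and none higher, beside 7.02% of genes lower and 8.13% higher. Between LR and DTEP 1 member was called lower, beside 0.457% of genes lower and 0.225% higher. The same 4 CEACAM genes were called lower than Control in DTEP and in LR, comparisons that share the Control libraries, beside 6.20% and 7.80% of genes called lower and 4.43% and 5.03% called higher. Because the members were chosen on these levels, the counts describe them and support nothing.

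PSG4 (Entrez 5672, 43192702 to 43205638) encodes the family member with the highest level in every group but LR. Its normalised read count was 1.01, 0.435 and 1.49 in the Control libraries, 57.4, 61.2 and 64.1 in DTP, 12.3, 6.3 and 0.337 in DTEP, and 0.0422, 0 and 0 in LR. The DTP libraries stood close together and far above all others, whereas the DTEP libraries ranged from well above Control to below it. In pooled reads PSG4 was 60.4-fold higher in DTP than in Control (47 to 79), from 62 reads to 3452, a log2 change of 5.00 (SE 0.60). It was 9.18-fold lower in DTEP than in DTP (8.29 to 10.2), a log2 change of -3.61. In LR 1 read was left, against 417 in DTEP and 62 in Control. In the order DTP, DTEP, Control and LR, only the neighbouring DTEP and Control levels overlapped.

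The DTEP level of PSG4 depended on which libraries were used. Without DTEP replicate 3 the mean was 9.32 instead of 6.33 and the log2 change from DTP was -2.65, and without DTEP replicate 1 the mean was 3.32 and the change -4.31. The log2 change of PSG4 from DTEP to LR was -2.32, and its call there was the least firm of any member: it was lost under 14 of the alternative settings and kept under 9, with adjusted p from 0.0537 to 0.301 in limma where it was lost, while without DTEP replicate 3 the change was -3.28 and the call was kept. Without DTEP replicate 1 it was -1.62.

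PSG8 (Entrez 440533, 42752686 to 42765678), another secreted PSG, had no read in any Control or LR library. Its level was 1.3, 1.73 and 1.04 in DTP and 0.335, 0.206 and 0.0561 in DTEP. The groups did not overlap where reads were present, although the DTEP values rest on 7, 5 and 1 reads. It was at least 28.2-fold higher in DTP than in Control, taking 3 reads over the group as the Control limit, and 6.66-fold lower in DTEP than in DTP (3.67 to 13.1). Its log2 change from Control to DTP was 1.23 (SE 0.13), under the limit of 2, so PSG8 was not called. With a pseudocount of 0.1, or with edgeR or DESeq2 on whole reads, it was called, at log2 changes of 3.84, 7.82 and 7.30. Since PSG8 passed the filter through its DTP libraries alone, these calls add no support.

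PSG5 (Entrez 5673) and PSG9 (Entrez 5678), close neighbours of PSG4 on either side, had few reads. PSG5 was read at 0, 0.0544 and 0 in Control, 0.47, 0.395 and 0.921 in DTP, 0.144, 0.0412 and 0 in DTEP, and 0, 0 and 0.0969 in LR. PSG9 was read at 0, 0.109 and 0.0932 in Control, 0.626, 0.494 and 0.403 in DTP, 0.239, 0.124 and 0 in DTEP, and 0 in all LR libraries. For both genes each DTP library lay above every library of the other groups. In pooled reads PSG5 was 35.8-fold higher in DTP than in Control, an estimate that rests on 33 reads against 1 (5.99 to 1456), and PSG9 was 7.87-fold higher, 29 reads against 4 (2.76 to 30.8). PSG1 had 1 read in DTP and 1 in DTEP, and PSG3 had 2 reads, both in DTP, so no comparison was possible at this depth.

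PSG genes resemble each other closely enough that reads of one could be counted under another, and the sources used here say that counting ran with default settings without spelling out how reads mapping to several places were treated. Of the 50-base words in the GENCODE transcripts of each gene, 15.2% of those of PSG4, 35.3% of PSG8, 26.7% of PSG9 and 17.2% of PSG5 also occurred in another PSG or CEACAM transcript. Those shared with PSG4 in particular came to 3.98% for PSG8 and 6.24% for PSG9. In the DTP libraries the PSG8 reads amounted to 2.27%, 2.82% and 1.62% of the PSG4 reads. In the DTEP libraries they amounted to 2.71%, 3.27% and 16.7%, the last from 1 read against 6. The PSG5 reads in DTP came to 0.819%, 0.645% and 1.44% of those of PSG4, and the PSG9 reads to 1.09%, 0.806% and 0.629%. The low PSG8, PSG5 and PSG9 levels are therefore uncertain, and the share of their reads that came from PSG4 transcripts was not tested. The sources do not say whether strand was used in counting either, so reads of antisense transcripts over these genes may not have been told apart.

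**Figure D2:**
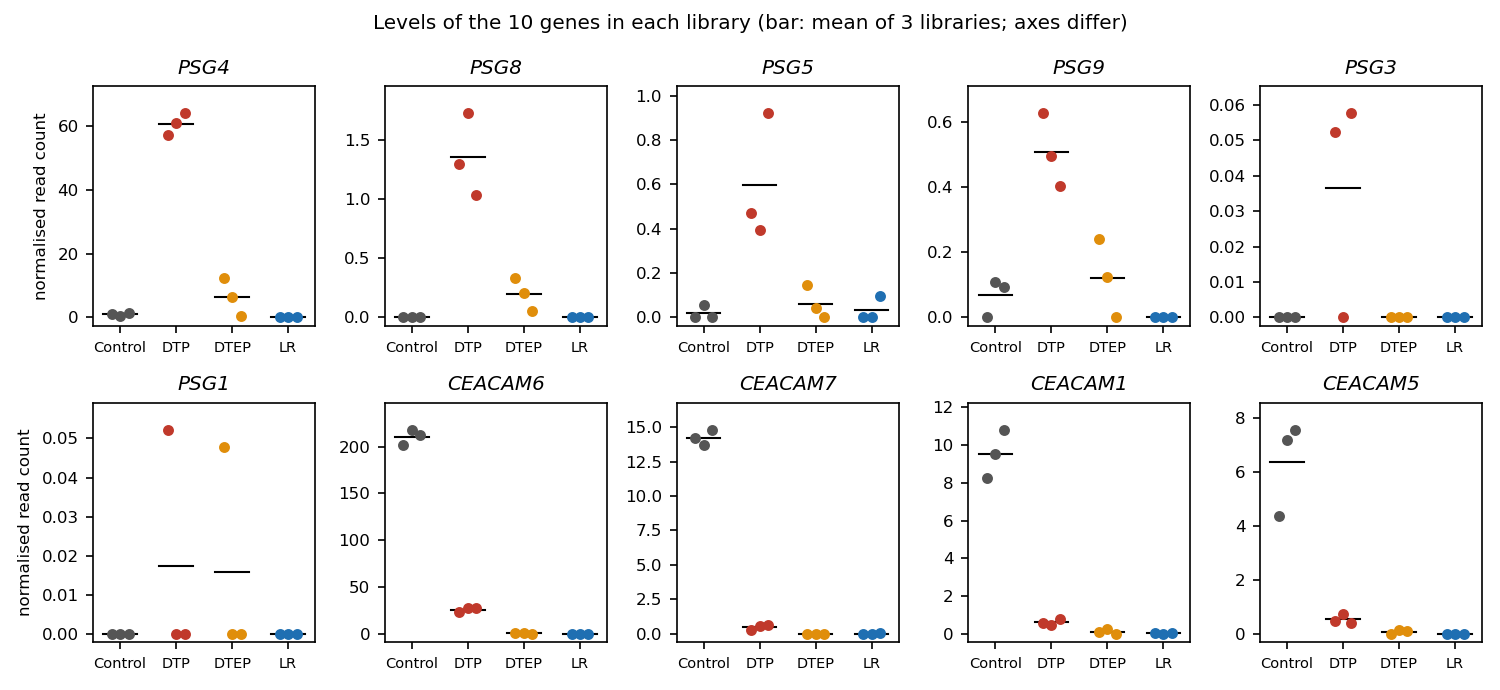
Normalised read count of each of the 10 genes (vertical axes, which differ between panels) in the 3 libraries of each group; each point is a library and each bar a group mean. PSG4, PSG8, PSG5 and PSG9 are highest in DTP, PSG4 at 57.4 to 64.1, and the 4 CEACAM genes are highest in Control, CEACAM6 at 202 to 218.

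CEACAM6 (Entrez 4680, 41755530 to 41772211), a GPI-anchored adhesion protein that many carcinomas make in excess, had the highest level of the members in Control. Its level was 202, 218 and 212 in Control, 22.9, 27.1 and 27.9 in DTP, 1.34, 0.535 and 0 in DTEP, and 0, 0.111 and 0.0484 in LR. The libraries of a group agreed within narrow limits in Control and DTP, and each step down to DTEP left no overlap between groups, while DTEP and LR overlapped. The level was 8.1-fold lower in DTP than in Control (7.68 to 8.56) and a further 39.9-fold lower in DTEP (29.2 to 55.8), log2 changes of -2.98 and -4.13 (SE 0.25 each). From Control to LR the reads went from 12951 to 3. Without DTEP replicate 3, which had no CEACAM6 read, the change from DTP to DTEP was -3.83, and without DTEP replicate 1 the mean DTEP level was 0.268 instead of 0.625.

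CEACAM7 (Entrez 1087, 41673303 to 41688270), a GPI-anchored protein best known from the apical surface of colon epithelium, had the largest fold decrease of the 4 CEACAM members at day 9, with an interval that overlapped that of CEACAM1. Its level was 14.2, 13.7 and 14.8 in Control, 0.313, 0.592 and 0.633 in DTP and 0 in all DTEP libraries, and LR held a single read. DTP was 27.9-fold below Control (19.3 to 42), a log2 change of -3.34 (SE 0.12), and DTEP was at least 300-fold below Control. No 50-base word of its transcripts was shared with another family member.

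CEACAM1 (Entrez 634, 42507306 to 42528481), the transmembrane member, lies next to the PSG genes, apart from the other CEACAM members. Its level was 8.23, 9.51 and 10.8 in Control, 0.574, 0.494 and 0.806 in DTP, 0.0957, 0.247 and 0 in DTEP, and 0.0422, 0 and 0.0484 in LR. Control and DTP were separated 15.4-fold (11 to 22.4), a log2 change of -2.69 (SE 0.14), and DTEP and LR overlapped.

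CEACAM5 (Entrez 1048, 41708626 to 41730519), the carcinoembryonic antigen, had the lowest Control level of the 4. Its level was 4.37, 7.18 and 7.55 in Control, 0.47, 0.74 and 0.403 in DTP, 0, 0.124 and 0.112 in DTEP, and 0 in all LR libraries. It was 11.6-fold lower in DTP than in Control (8.02 to 17.3), a log2 change of -2.24 (SE 0.17), and at least 131-fold lower in LR than in Control. Below DTP, the levels of CEACAM1, CEACAM5 and CEACAM7 were at or near the 3-read limit of 0.124 to 0.173, so a further decrease from DTEP to LR was not detectable at this depth.

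On the log2(value + 1) scale, which flattens low levels, the 3 lower CEACAM members followed each other more closely than they followed CEACAM6. The folds at day 9 did not give that grouping. CEACAM5 was 11.6-fold lower (8.02 to 17.3), an interval that overlapped CEACAM6 at 8.1 (7.68 to 8.56) but not CEACAM7 at 27.9 (19.3 to 42). CEACAM1, at 15.4 (11 to 22.4), overlapped CEACAM5 and CEACAM7 but not CEACAM6. Over the 12 libraries, which share 4 group levels and are not independent points, Pearson's r of log2(value + 1) lay between 0.987 and 0.995 among CEACAM1, CEACAM5 and CEACAM7, and between 0.888 and 0.904 between each of them and CEACAM6. In normalised read counts CEACAM6 was still at 26 ± 2.68 in DTP, whereas the other 3 together were at 1.68 ± 0.276. PSG4 and PSG8 gave 0.95, with the shared reads described above.

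Of the other 14 PSG and CEACAM genes in the table, CEACAM19 was the one with at least 340 reads in every group, and at day 9 it moved in the direction of PSG4, opposite to the 4 CEACAM members. CEACAM19, a little-studied transmembrane member, lies outside the cluster at 44665860 to 44684355. Its level was 17.1, 13.9 and 16.2 in Control, 87.5, 78.3 and 67.9 in DTP, 6.27, 4.57 and 5.5 in DTEP, and 5.11, 7.19 and 9.84 in LR. It rose 4.95-fold from Control to DTP (4.62 to 5.31), or by 2.24 on the log2 scale (SE 0.22, limma adjusted p = 9.44e-06), and fell 14.5-fold to DTEP, a log2 change of -3.61 (adjusted p = 5.57e-08). LR and DTEP overlapped (limma adjusted p = 0.258), and both were below Control without passing the limit on the size of the change. None of its 50-base words occurred in another family member.

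CEACAM21 had 95 reads in Control, at levels of 0.828, 2.12 and 1.77, and 1, 0 and 1 reads in DTP, DTEP and LR, and was not tested for its low values. CEACAM20 had 13 reads over the 12 libraries, CEACAM22P 12, CEACAM3 7, CEACAM16 6, and CEACAM4, CEACAM8 and PSG2 1 each. PSG6, PSG7, PSG10P, PSG11 and CEACAM18 had none.

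The genes around the members were compared to see whether the stretch of chromosome 19 moved as a whole. Within 500 kb of the outermost members there were 60 other genes, of which 43 were tested. From Control to DTP, 1 of them was called higher, 1 lower and 41 not called, beside 1.01% and 3.90% of all tested genes called higher and lower. At an adjusted p under 0.05 alone, for which no share over all genes is given, 16 were higher and 6 lower. The median log2 change was 0.30, against -0.01 over all genes tested. From DTP to DTEP 2 were called higher and 3 lower, beside 8.13% and 7.02% of genes, and 11 and 18 passed the adjusted p alone. The median was -0.25 against 0.08. From DTEP to LR limma called none, beside 0.225% and 0.457% of genes, with a median of -0.20 against -0.07. In that last comparison 1 neighbour was higher and 2 lower at an adjusted p under 0.05, and 4 and 12 at an unadjusted one. In edgeR and in DESeq2, 2 were called lower.

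**Figure D3:**
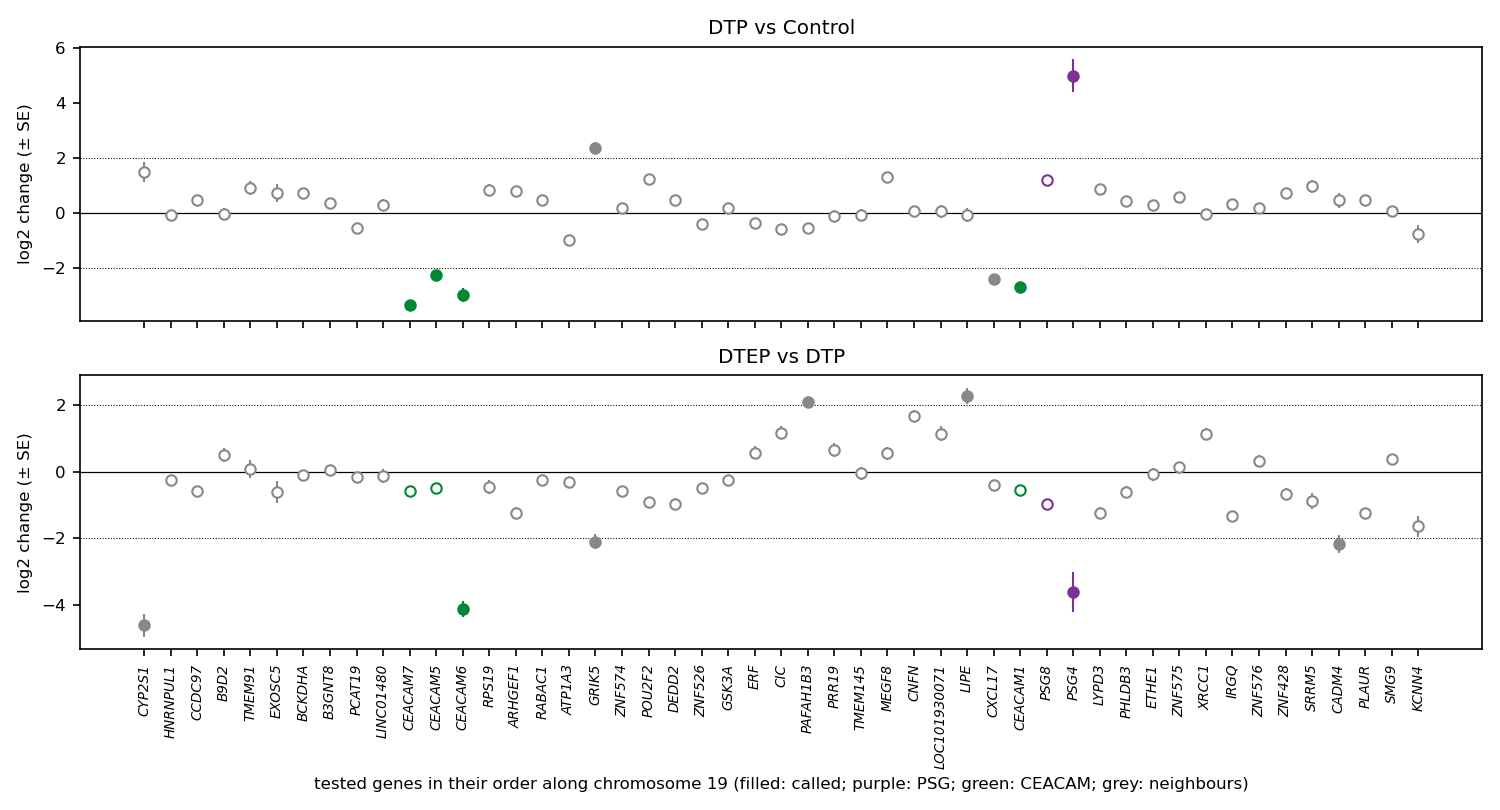
Log2 change (± SE, limma) of the tested genes around the members, in their order along chromosome 19 on the horizontal axis, for DTP against Control (top) and DTEP against DTP (bottom); filled points were called, purple is PSG, green CEACAM and grey a neighbour, and dotted lines mark a change of 2. At day 9, CEACAM7, CEACAM5, CEACAM6 and CEACAM1 lie below -2 and PSG4 at 5.00, among neighbours of which GRIK5 and CXCL17 alone were called.

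The neighbour called higher at day 9 was GRIK5, a kainate-type glutamate receptor subunit. It rose from 1.24, 1.25 and 1.07 in Control to 12.6, 10.2 and 8.81 in DTP, or by 2.39 on the log2 scale (SE 0.22, limma adjusted p = 6.87e-06). It fell again to 2.68, 1.52 and 1.01 in DTEP, a log2 change of -2.11. The neighbour that fell at day 9 was CXCL17, a mucosal chemokine whose gene lies beside CEACAM1, from 5.34, 6.31 and 5.92 in Control to 0.209, 0.543 and 0.23 in DTP, a log2 change of -2.37 (SE 0.12, adjusted p = 1e-07). CXCL17 had no read in DTEP or LR. It passed the filter through its Control libraries alone, so its call is a description only. Control and DTP did not overlap in either gene, while GRIK5 overlapped between DTEP and Control.

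From DTP to DTEP, LIPE, the hormone-sensitive lipase, rose from no read in any library to 3.16, 5.27 and 3.42, a log2 change of 2.28 (limma adjusted p = 4.17e-06). PAFAH1B3, a catalytic subunit of a platelet-activating factor acetylhydrolase, rose from a mean of 29.9 to 130 (2.10, adjusted p = 5.38e-07). CYP2S1, a cytochrome P450 of epithelia at the far CEACAM end of the window, fell from 48.4 to 1.33 (-4.62, adjusted p = 3.66e-07), and CADM4, an adhesion molecule, from 47.4 to 10.1 (-2.18, adjusted p = 2.58e-05). The DTEP libraries of CYP2S1 spread widely, at 3.01, 0.906 and 0.0561, and those of CADM4 were at 13.2, 11.2 and 6.01.

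Below the filter, CD177 and TEX101, GPI-anchored surface proteins of neutrophils and germ cells whose genes lie beside the PSG genes, were named after their values were seen. CD177 had 56 reads in DTP against 2 in Control, 8 in DTEP and 0 in LR, and TEX101 had 13 against 0, 3 and 0. Both were highest in DTP, on few reads. Of other neighbours below the filter, CD79A (36 reads) and LOC284344 (14) were also highest in DTP. Some took other courses over Control, DTP, DTEP and LR: TGFB1 had 70, 44, 26 and 12 reads, PINLYP 4, 4, 21 and 16, and LIPE-AS1 11, 38, 26 and 44.

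Of 20 tested receptors and partners of these families, out of 24 listed, 1 rose from Control to DTP, TGFB2, whose latent product is among the cytokines that PSG proteins can activate, from 0.828, 0.815 and 0.466 in Control to 5.43, 7.75 and 10.9 in DTP (log2 change 2.37, SE 0.47, limma adjusted p = 0.00135). None fell by more than the limit of 2, although 6 were lower at an adjusted p under 0.05 in limma, and edgeR called 0 lower and DESeq2 1. From DTP to DTEP 5 fell and none rose past the limit (7 were higher at an adjusted p under 0.05 in limma, and edgeR and DESeq2 each called 1). The 5 included SDC2, a heparan sulfate proteoglycan, from 63.2 to 7.81 (-3.17, adjusted p = 0.000268), and LGALS3, a galectin that binds glycans of CEACAM proteins, from 314 to 51 (-2.97, adjusted p = 0.000243). The DTEP libraries spread widely, at 14.1, 7.62 and 1.74 for SDC2 and 105, 28.7 and 19.4 for LGALS3. Between DTEP and LR limma, edgeR and DESeq2 called none, and 5 genes had an unadjusted p under 0.05 in limma, 2 higher and 3 lower. The median log2 change of the list was -0.08, -0.95 and 0.04 in these comparisons, against -0.01, 0.08 and -0.07 over all genes. For this list and those below, limma called 1.01% of all tested genes higher and 3.90% lower from Control to DTP. The shares were 8.13% and 7.02% from DTP to DTEP, and 0.225% and 0.457% from DTEP to LR. No share over all genes is given for counts at a p-value alone or from edgeR or DESeq2.

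Of 15 tested transcription regulators tied to PSG or CEACAM promoters, limma, edgeR and DESeq2 called none between Control and DTP. At an adjusted p under 0.05 alone, 6 were higher and 5 lower in limma, and the median log2 change was -0.03. In the next step, to DTEP, 3 fell and 12 were not called, beside 7.02% of all tested genes called lower. The 3 included RARA, the retinoic acid receptor alpha, from 119 to 17 (-2.76, limma adjusted p = 3.71e-07), and KLF5, an epithelial Krüppel-like factor that binds CACCC and GC-rich motifs, from 30 to 5.72 (-2.58, adjusted p = 0.00179). The DTEP libraries were at 22.4, 14.8 and 13.8 for RARA, and spread from 11.1 and 5.56 to 0.561 for KLF5. Between DTEP and LR none was called by any of the 3 tools, with 5 genes higher at an unadjusted p under 0.05 in limma and 3 at an adjusted one.

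Placental genes other than the PSG genes were mostly below the filter. Of 49 listed trophoblast genes 13 passed the filter, and from Control to DTP 1 of these rose and none fell past the limit (median log2 change 0.32). At an adjusted p under 0.05 in limma, 4 were higher and 5 lower, and edgeR and DESeq2 each called 2 higher and 2 lower. The gene that rose in limma was ALPP, the GPI-anchored placental alkaline phosphatase, at 0.46, 0.217 and 0.559 in Control and 90.3, 83.2 and 72.7 in DTP (5.88, SE 0.69, limma adjusted p = 3.81e-05); it has a near-identical paralog with which reads can be shared. ALPP was read at 20.9, 5.81 and 0.337 in DTEP, where it fell (-3.83, adjusted p = 0.000374), and at 0.0422, 0 and 0 in LR. DTEP replicate 3 was the lowest DTEP library for ALPP as for PSG4. Outside DTP, ALPP was at 1 or more in DTEP replicates 1 and 2 only, so it passed the filter through its DTP libraries. Its calls between DTP and another group are a description only.

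Between DTP and DTEP 3 placental genes rose and 3 fell, beside 8.13% of all tested genes called higher and 7.02% lower. PEG10, a retrotransposon-derived imprinted gene needed for placental development, rose from a mean of 32.5 to 2675 (6.32, limma adjusted p = 8.35e-09), and ERVMER34-1, an endogenous retroviral envelope gene, from 4 to 36.8 (2.88, adjusted p = 3.46e-07). VGLL1, a TEAD cofactor of trophoblast, fell with ALPP, from 6.86 to 0.732 (-2.32, adjusted p = 2.1e-05). Its DTEP libraries were at 1.87, 0.33 and 0. VGLL1 passed the filter through its DTP libraries, where it was highest, so its call is a description only. From DTEP to LR 1 fell and none rose; at an unadjusted p under 0.05, 1 was higher and 2 lower, and edgeR and DESeq2 each called 3 lower and none higher.

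Among 17 tested epithelial glycoproteins and GPI-anchored surface proteins, a list that contains CEACAM5 and CEACAM6, the 2 that fell from Control to DTP were these 2 members, and the 1 that rose was CD55, the GPI-anchored complement decay-accelerating factor, from 11.3 to 68.5 (2.49, SE 0.17, limma adjusted p = 5.95e-07). By DTEP 5 had fallen from their DTP level and 1 had risen, beside 7.02% of all tested genes called lower and 8.13% higher. The trefoil factors TFF1 and TFF3, secreted with mucins, fell from 289 to 21.9 (-4.39, adjusted p = 0.000188) and from 99.7 to 8.88 (-3.51, adjusted p = 6.96e-06), while the GPI-anchored, interferon-induced BST2 rose from 0.0338 to 226 (7.73, adjusted p = 5.33e-10). The DTEP libraries spread widely for TFF1, at 49.5, 14.1 and 2.25, and for TFF3, at 16.4, 6.3 and 3.99. From DTEP to LR 1 fell and none rose past the limit. In limma 2 were higher and 3 lower at an adjusted p under 0.05, and 2 and 8 at an unadjusted one. With edgeR and with DESeq2, 4 were called lower and none higher.

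Of 19 genes of gut and surface epithelia 5 were tested. At day 9 limma called none, with 3 higher at an adjusted p under 0.05, while edgeR and DESeq2 each called 2 higher, and from DTP to DTEP 2 fell past the limit. They were KRT4, a keratin of stratified mucosa, from 38.4 to 1.11 (-4.25, limma adjusted p = 5.94e-09), and LGALS4, a gut galectin, from 4.37 to 0.306 (-2.05, adjusted p = 1.74e-06). LGALS4 passed the filter through its DTP libraries alone, so its call is a description only. Between DTEP and LR limma called none, with 3 lower at an unadjusted p under 0.05, whereas edgeR called 2 lower and DESeq2 3. Of 10 myeloid genes 2 were tested and limma called neither in the 3 successive comparisons. At an adjusted p under 0.05 alone, 1 was higher from Control to DTP, and 1 was higher and 1 lower from DTP to DTEP. From DTP to DTEP edgeR called 1 higher and DESeq2 1 higher and 1 lower, and from DTEP to LR DESeq2 called 2 lower and edgeR none.

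The genes whose course over the 12 libraries was most like that of a member were ranked by Pearson's r among 13787 genes outside both families; the libraries share their group levels and the values are a description. Most like PSG4 were ALPP (0.993), AFAP1L2, an adaptor protein (0.989), and SCNN1G, the gamma subunit of the epithelial sodium channel (0.988). AFAP1L2 went from a mean of 0.876 in Control to 10.7 in DTP, 1.64 in DTEP and 0.0507 in LR, and SCNN1G from 0.159 to 6.52, 1.49 and 0.0161. The low PSG9 was most like OXLD1 (0.982), LPAR5, a lysophosphatidic acid receptor (0.981), and LINC01311 (0.979).

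Most like CEACAM5 were CXCL17, whose gene lies beside CEACAM1 rather than CEACAM5, AMTN, a secreted protein of the tooth enamel organ, and LINC00664, each at 0.992. Most like CEACAM6 were AADAT, an aminotransferase of tryptophan breakdown, PADI2, a peptidylarginine deiminase, and DPYSL5, each at 0.998. PADI2 was read at 269, 269 and 283 in Control, 40.3, 39.2 and 41.9 in DTP, 3.21, 3.34 and 1.12 in DTEP, and 0.845, 1.77 and 0.872 in LR. DPYSL5 went from a mean of 110 to 21.4, 0.633 and 0.0346.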

How the data were processed

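BT474 RNA was sequenced as stranded TruSeq mRNA libraries, 3 per group in 4 groups. The authors aligned reads to hg38 with Rsubread, counted them over RefSeq gene models with default settings and normalised them; the labels also name bcl2fastq and edgeR. The deposited signal values were whole multiples of 1 read per library, so whole read counts could be recovered for every value. The members and gene lists were chosen with earlier results of these data known.

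The 5 comparisons were fitted with limma 3.58.1 (R 4.3.3, with trend) on log2(value + 1) over all 12 libraries, keeping genes at 1 or more in at least 3 libraries, with Benjamini-Hochberg adjustment; called genes had adjusted p under 0.05 and absolute log2 change above 2. Folds are ratios of pooled reads with exact 95% intervals. Named genes were all PSG and CEACAM genes, for each other list the 2 largest and 2 smallest called genes from Control to DTP and from DTP to DTEP, for the neighbourhood every called gene at day 9 and the 3 largest and 3 smallest of the next step, and the 3 genes most like PSG4, PSG9, CEACAM5 and CEACAM6. Alternatives included edgeR 4.0.16 and DESeq2 1.42.0 on whole reads, other pseudocounts, filters and scalings, a replicate block and each library left out. Each fitting script was tested on simulated data.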

Additional observations from a re-analysis of the deposited data

How the results depend on the processing

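Of 402 recomputed log2 changes of single members, 370 kept their direction and their side of the threshold, 17 passed it newly, 14 no longer passed it and 1 reversed. The 14 were all the change of PSG4 from DTEP to LR, and the reversal was CEACAM7 from DTEP to LR without LR replicate 3 (0.00; 0.00 to 0.03 over single libraries left out), where a single read is at stake. The 17 were calls by edgeR, DESeq2 or a pseudocount of 0.1 of members low in the groups compared, CEACAM6 from DTEP to LR among them. Over settings, from Control to DTP 5 members were called, but 2 when a mean of at least 5 was required, which leaves 2 members tested; that filter gave 1 member from Control to DTEP and 1 from Control to LR instead of 4 each. From DTP to DTEP 2 members were called, 4 with a pseudocount of 0.1 and 6 with edgeR and with DESeq2. From DTEP to LR 1 was called, 0 with no filter, with the 6 libraries compared alone and with the replicate block, 3 with edgeR and with DESeq2, and 0 to 1 with single libraries left out; the call was lost without any one library except DTEP replicate 3. In the neighbourhood, 2 genes were called from Control to DTP, 4 with a pseudocount of 0.1, edgeR or DESeq2, 0 at a mean of at least 5 and 5 at a log2 limit of 1. From DTP to DTEP 5 were called, 9 with a pseudocount of 0.1 and with DESeq2, 10 with edgeR, 3 at a mean of at least 5 and 14 at a limit of 1, and 3 to 6 with single libraries left out, the 3 without DTEP replicate 3. From DTEP to LR 0 were called, 1 with a pseudocount of 0.1 and 2 with edgeR and with DESeq2. The share of all genes called was computed only for the limma fit described above. Counts of members and neighbours under the other settings have no such share beside them and are a description only. Rescaling by median-of-ratios moved the median of all genes by 0.036, -0.101 and 0.0309 in the successive comparisons and changed no call among the members.

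The labels give replicate numbers without saying whether same-numbered libraries of different groups belong together. Of 18 same-numbered pairs, 2 had deviations correlated above 0.1 (-0.441 to 0.359), both between DTP and DTEP (0.359 and 0.335). Pairs with different numbers were not compared, so these values cannot settle whether the libraries were paired. With the replicate block the members called were 5, 2 and 0 in the successive comparisons, PSG4 from DTEP to LR standing at an adjusted p of 0.0537 in limma, and it changed no other call of a member in these comparisons; the neighbours called were 2, 5 and 0 with and without it. Low counts limit PSG1, PSG3, PSG5 and PSG9, and every CEACAM level in LR.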
